A study of Mus musculus with 3 samples.

Results

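Regions of open chromatin called in a 3-week-old mouse kidney and in neither of 2 kidneys at 75 weeks were described. The peaks of the 3 libraries were merged wherever they overlapped by at least 1 bp, which gave 250005 regions. Of these, 19872 held a peak of the young library and no peak of either old library, 7.95% of all merged regions and 13.5% of the 147621 that held a young peak. Each of the 19872 held 1 young peak, and their median width was 859 bp (191 to 1956 bp). They are called young-only regions here. The name states where a peak was called and not where chromatin was open, because each deposited table holds counts only inside that library's own peaks. The level of the old libraries at young-only regions was therefore not measured here, and a missing peak is not a count of 0.

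All 3 libraries came from kidneys of mice that carry a trnE mutation, which alters the glutamate tRNA encoded by mitochondrial DNA, and were made by mtscATAC-seq, which tags accessible DNA in single cells that were fixed so that the mitochondria stay inside. The young library came from a kidney at 3 weeks of age with a mutation load of 80%, the percent of mitochondrial genomes that carry the mutation. The old kidneys were taken at 75 weeks, with a load of 75% in old replicate 1 and of 80% in old replicate 2. The young group is 1 library, whether the old kidneys came from separate animals is not stated, no mouse without the mutation was used here, and age cannot be told apart from library, so no test between ages was made.

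The libraries differed in depth and in their cells, and both touch which regions were called. Old replicate 1 had 5656 barcodes and 96093221 counts, old replicate 2 had 4302 and 64729297, and the young library had 4440 and 110871506, with medians of 16288.5, 13338.5 and 23319.5 counts per barcode. Between 28 and 39 barcodes were shared by each pair of libraries. Proximal tubule-like cells numbered 146 of the 5315 cells kept in old replicate 1, 2884 of 3950 in old replicate 2 and 3077 of 3976 in the young library. Old replicate 2 was thus the only old library with many cells of the type that dominates the young one, and it was the shallowest. Without old replicate 2 the number of young-only regions was 65397, and without old replicate 1 it was 30802. Their share of young counts, 2.38%, was 15.9% and 3.94%. The part of depth and of cell make-up in the young-only calls was not tested.

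An accessible region is a stretch of DNA that is free enough of nucleosomes for transposase to cut, and most such regions are promoters, where transcription starts, or enhancers, which act on promoters at a distance. Proximal tubule cells take up most of the filtered salt, phosphate, glucose and amino acids, and their identity rests on transcription factors such as HNF4A. In mice the last nephrons form in the first days after birth, and at weaning age the tubule is still lengthening and acquiring its adult transporters.

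Sequences are shown for 5 promoters that young-only regions cover, as examples of promoters beside old peaks and of promoters far from them. Slc26a1 encodes a sulfate transporter of the proximal tubule, and Hnf4aos is a transcript antisense to the gene of HNF4A. Both lie beside peaks of the old libraries. Hmga2 encodes a chromatin protein abundant in embryonic growth, Amotl1 an angiomotin family protein of cell junctions, and Col1a2 a chain of type I collagen. These last 3 have no old peak within 5 kb. Each window runs from 250 bases before a RefSeq start to 50 bases after it (GRCm38.p6, the same assembly as mm10). The windows lie at chr5:108674747-108675046 for Slc26a1, chr2:163541672-163541971 for Hnf4aos, chr10:120476420-120476719 for Hmga2 and chr9:14614951-14615250 for Amotl1, all on the minus strand, and at chr6:4505368-4505667 on the plus strand for Col1a2. They are written 5′ to 3′ in the sense of the gene, with CG dinucleotides in capitals.
Slc26a1: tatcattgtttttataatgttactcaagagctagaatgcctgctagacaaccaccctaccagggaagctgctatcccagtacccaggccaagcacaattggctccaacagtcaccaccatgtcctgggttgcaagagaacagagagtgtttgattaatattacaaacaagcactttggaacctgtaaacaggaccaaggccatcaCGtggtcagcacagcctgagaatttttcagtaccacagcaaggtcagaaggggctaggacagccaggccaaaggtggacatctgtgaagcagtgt
Hnf4aos: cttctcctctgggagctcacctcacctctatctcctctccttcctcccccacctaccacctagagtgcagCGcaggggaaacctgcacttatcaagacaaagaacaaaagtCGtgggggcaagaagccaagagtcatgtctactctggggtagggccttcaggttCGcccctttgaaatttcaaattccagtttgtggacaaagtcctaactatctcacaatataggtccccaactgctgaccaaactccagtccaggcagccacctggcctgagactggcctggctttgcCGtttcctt
Hmga2: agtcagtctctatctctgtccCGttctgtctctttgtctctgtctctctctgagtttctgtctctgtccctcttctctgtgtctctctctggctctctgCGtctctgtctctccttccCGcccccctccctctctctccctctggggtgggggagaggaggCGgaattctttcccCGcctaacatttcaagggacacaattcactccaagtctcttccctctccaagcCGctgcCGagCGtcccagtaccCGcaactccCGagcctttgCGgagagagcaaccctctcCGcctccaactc
Amotl1: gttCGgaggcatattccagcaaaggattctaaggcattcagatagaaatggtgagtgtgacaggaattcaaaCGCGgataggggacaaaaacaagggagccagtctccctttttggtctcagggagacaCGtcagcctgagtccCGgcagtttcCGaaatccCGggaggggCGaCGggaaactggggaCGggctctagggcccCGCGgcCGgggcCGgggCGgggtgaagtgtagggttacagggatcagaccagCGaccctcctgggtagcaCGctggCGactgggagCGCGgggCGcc
Col1a2: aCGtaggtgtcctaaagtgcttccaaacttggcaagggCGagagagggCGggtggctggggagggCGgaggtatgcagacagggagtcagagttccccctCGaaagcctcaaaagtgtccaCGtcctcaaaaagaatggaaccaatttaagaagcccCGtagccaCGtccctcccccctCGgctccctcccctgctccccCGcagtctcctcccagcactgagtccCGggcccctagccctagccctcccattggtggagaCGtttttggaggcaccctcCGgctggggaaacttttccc

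The young-only region covered 213 of the 300 bases at Slc26a1, 300 at Hnf4aos, 244 at Hmga2, 268 at Amotl1 and 300 at Col1a2. CG dinucleotides numbered 1 at Slc26a1, 4 at Hnf4aos, 12 at Hmga2, 21 at Amotl1 and 13 at Col1a2. In all, 315 young-only regions overlapped such a window, and they met 357 of the 32851 RefSeq starts. Those 357 windows held a median of 6 CG dinucleotides (quartiles 3 and 14), against 7 (3 and 20) over all starts and 20 (11 and 29) over the 14836 starts met by regions called in all libraries. Windows with 20 or more CG dinucleotides made up 17.4%, 26.5% and 52.4% of these groups. The 108 starts met by young-only regions with no old peak within 5 kb also had a median of 6, and 15.7% held 20 or more, so the higher counts in the last 3 printed windows are not typical of such starts. Promoters under young-only regions were therefore CG-poor beside those of shared regions. Their median was near that of all starts, but windows with 20 or more CG dinucleotides were fewer than over all starts.

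Motifs were searched as exact letters on both strands of the 300 bases. The GC box GGGCGG was in 30.8% of windows met by young-only regions, 35.7% of all windows and 62.5% of those met by regions of all libraries. TATAAA was in 13.2%, 13.6% and 6.77%, and CCAAT was in 30.3%, 37.4% and 37.4%. The AP-1 letters TGANTCA were in 7.0%, 7.81% and 4.90%. The HNF4 letters CAAAGTCCA were in 1 of the 357 windows (0.280%) and in 0.475% of all windows. Of the printed windows, Slc26a1 holds TATAAA and CCAAT, Col1a2 holds GGGCGG and CCAAT, and Hmga2 and Amotl1 hold GGGCGG. A match is a run of letters and shows no binding.

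Young-only regions were open in few cells. A region is counted as open in a barcode with at least 1 count there. The median young-only region was open in 52 of 4440 young barcodes, 1.17%, with the central 90% of regions from 0.676% to 3.22% and a highest value of 29.4%. The median was 2.41% at the 44981 regions called in the young library and old replicate 2, 1.35% at the 10451 called in the young library and old replicate 1, and 6.51% at the 72317 called in all libraries. Young-only regions made up 13.5% of the regions with a young peak and held 2.38% of the young library's counts. The fewer barcodes a young region was open in, the more often it was young-only. The share was 59.7% of young regions open in under 1% of barcodes, 26.1% from 1% to under 2%, 5.56% from 2% to under 5%, 1.29% from 5% to under 10%, 0.58% from 10% to under 20% and 0.0498% from 20% upwards. The lowest class held 6307 young-only regions, the next 10749 and the highest 6. Openness and the calling of a peak rest on the same counts, so these values describe the choice and support nothing further.

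**Figure D1:**
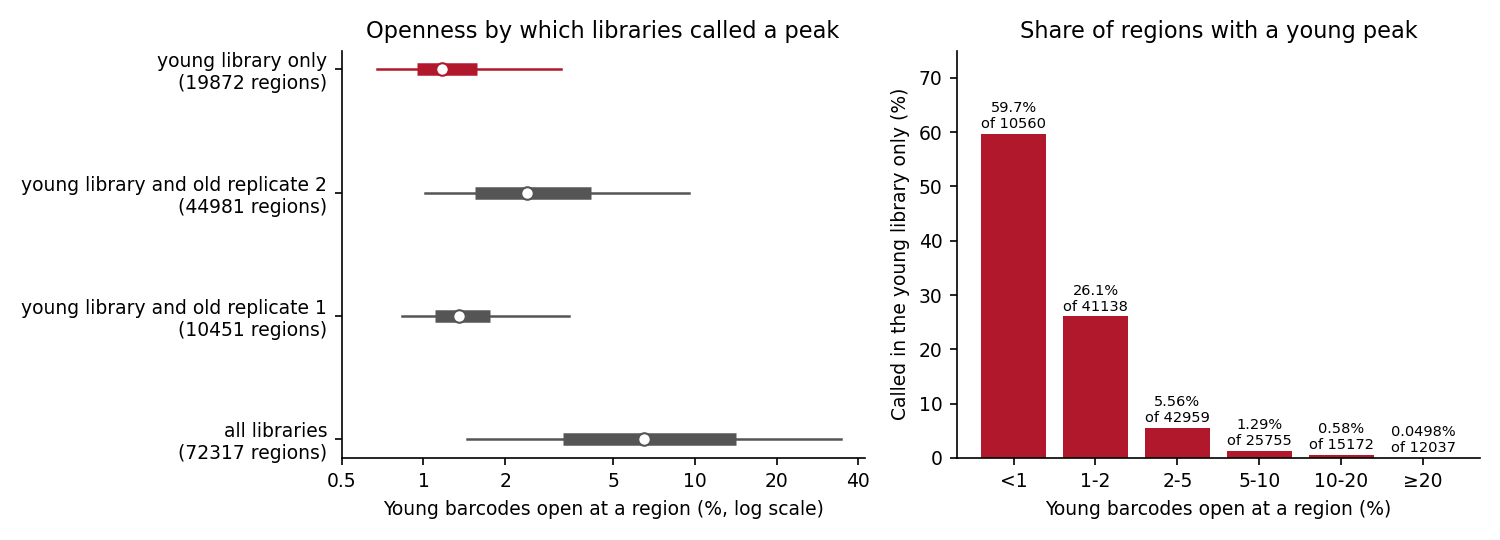
Left, percent of the 4440 young barcodes open at a region, on a log axis, for regions grouped by the libraries that called a peak (circle, median; thick bar, quartiles; thin line, central 90%). Right, percent of regions with a young peak that were called in the young library only, by openness, which falls from 59.7% to 0.0498%.

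The regions called in a single old library were also open in few cells. Regions called in old replicate 2 only numbered 18179, 12.8% of the regions of that library, with a median of 0.907% of its own barcodes open. Those called in old replicate 1 only numbered 78112, 46.8% of its regions, with a median of 0.990%. At the edge of the rule, young-only regions in Plod2, near Nfatc4, in Mb21d2 and near Glis3 lay 1 bp from an old peak, and one at the start of Inpp4a lay 2 bp away. They were open in 0.946% to 3.45% of young barcodes. The 5 regions with the smallest overlap, 1 or 2 bp, were not young-only and were open in 0.878% to 13.4%.

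Many barcodes, not few, carried the counts of a typical young-only region. Counts are transposition ends, so fragments were taken as each count over 2, rounded up. The median young-only region held 57 fragments, of which the 10 barcodes with the most held 25.4% (central 90% of regions, 12.6% to 41.7%). A median of 24 barcodes was needed to reach 50% of the fragments, which is 46.2% of the barcodes open there, and 92.3% of open barcodes had a single fragment. In 291 regions (1.46%) 10 or fewer barcodes held 50% of the fragments. The 10-barcode share depends on how many barcodes are open, so it was set beside other regions open in 1% to under 2% of barcodes. There the median was 23.5% for young-only regions, 21.7% for those shared with old replicate 2, 25% for those shared with old replicate 1 and 21.5% for those of all libraries. With a minimum of 2% of barcodes open for a peak, the median over young-only regions was 14.9%.

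**Figure D2:**
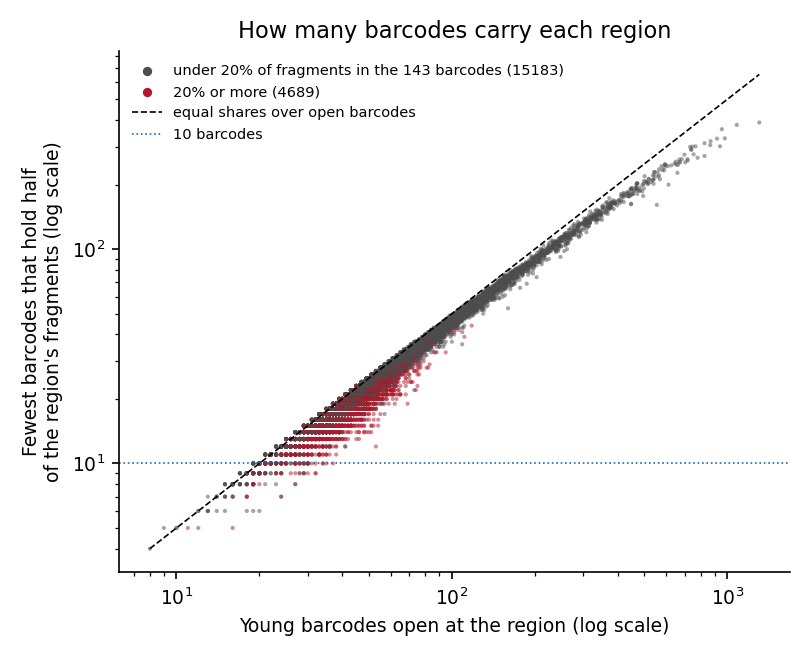
Each point is 1 of the 19872 young-only regions, by the barcodes open there and the fewest barcodes that hold 50% of its fragments, both on log axes. Points follow the dashed line of equal shares closely, and 291 lie at or below 10 barcodes. Red marks the 4689 regions with 20% or more of their fragments in the 143 barcodes described in the text.

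The regions most carried by a few barcodes were small. The most concentrated with at least 20 fragments lay in Cnbd2, a gene for a cyclic nucleotide-binding domain protein (chr2:156362541-156363424), where 16 barcodes were open and the leading 10 held 75.0% of 24 fragments. Cells of a cluster without a name, cluster 19, gave 73.9% of its fragments in kept cells. A region between genes nearest to Ccer1 had 68.0% of 25 fragments in 10 barcodes, one in Kmt2c, which encodes a histone H3 lysine 4 methyltransferase, 65.4% of 26, one near Irx1 64.3% of 28 and one in Macrod2 63.6% of 22. Counted over all regions, the signal touched nearly every barcode. Of 4440 young barcodes, 4439 were open in at least 1 young-only region, with a median of 244 regions per barcode. Of the counts in young-only regions, 50% lay in 913 barcodes, against 1088 barcodes for all counts. The 10 barcodes with the most held 3.64% of the counts in young-only regions, and the 10 deepest barcodes held 0.910% of all counts.

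The few young-only regions that were open in many cells mostly lay close to a peak of an old library. An old peak here is a peak of either old library, and it need not overlap a young one. The median distance to the nearest old peak was 2790.5 bp (quartiles 880 and 7820 bp), with 2972 regions (15%) within 500 bp and 6982 (35.1%) with no old peak within 5 kb. An old peak lay within 500 bp of 10.5% of regions open in under 1% of barcodes, 28.1% of those open in 2% to under 5%, 53.6% of those open in 5% to under 10% and 77.3% of the 88 open in 10% to under 20%. Promoter windows, taken as 1000 bp on each side of a start, followed the same order, with 2.22%, 6.69%, 21.4% and 43.2%. Of the 6 regions open in 20% or more, 66.7% had an old peak within 500 bp and 50% met a promoter window. Over all young-only regions 3.92% met a promoter window, 61.3% lay in a gene body outside one and 34.7% between genes, whereas 19.3% of regions called in all libraries met a promoter window. With windows of 500 bp the share of young-only regions was 2.35%. Read the other way, young-only regions were 4.31% of young regions at promoter windows, 14.6% of those in gene bodies and 15.1% of those between genes.

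**Figure D3:**
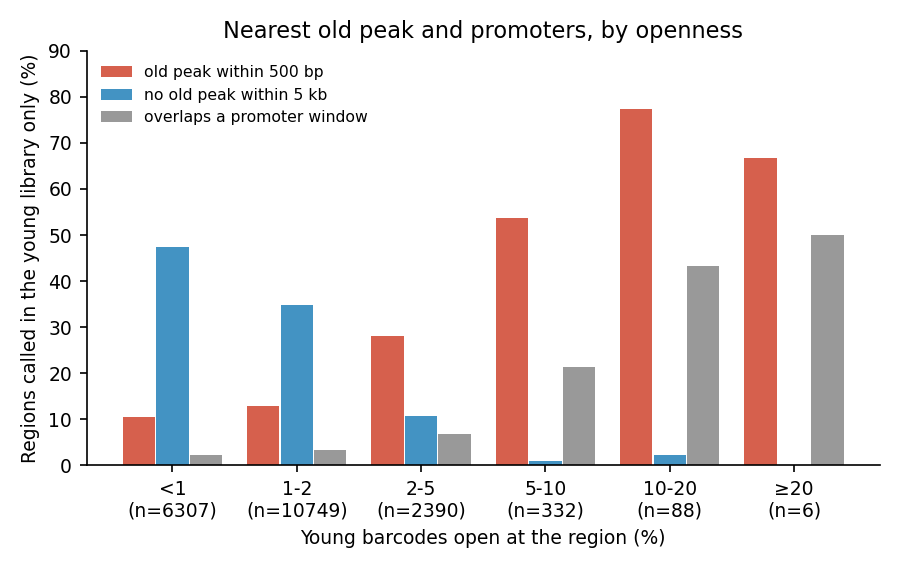
Percent of young-only regions with an old peak within 500 bp, with no old peak within 5 kb and with a promoter window, by the percent of young barcodes open. Regions within 500 bp of an old peak rise from 10.5% in the lowest class to 77.3% of the 88 regions open in 10% to under 20%, and are 66.7% of the 6 most open.

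The most open young-only region lay in Zbtb32, a zinc finger transcription factor gene (chr7:30589534-30590245). It was open in 1307 young barcodes, 29.4% (exact 95% binomial interval 28.1% to 30.8%, counting error only), and an old peak lay 98 bp away. Next came a region 543 bp from Esd, the esterase D gene (chr14:74730928-74731608), open in 24.4% (23.1% to 25.7%) and 185 bp from an old peak. The region over the start of Hnf4aos inside Hnf4a (chr2:163541571-163542343), whose window is printed above, was open in 22.1% (20.9% to 23.3%) and lay 246 bp from an old peak. The region at the Slc26a1 start, which overlaps Idua, a lysosomal enzyme gene (chr5:108674677-108674959), was open in 21.5% (20.3% to 22.8%) and lay 16 bp from one. In each of these 4 cases the neighbouring region was called in all libraries. Their proximal tubule-like shares of fragments ran from 95.2% to 97.3%.

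Of the other regions among the 10 most open, the one furthest from an old peak lay in Ndrg1, a gene induced by hypoxia and other stress (chr15:66961361-66962251). It was open in 21.2% of young barcodes (20% to 22.4%), 2423 bp from a region called in old replicate 1 only. Another, 1045 bp beyond Ndrg1 (chr15:66927456-66928273), was open in 18.6% (17.5% to 19.8%) and lay 64 bp from an old peak. A region in Gpx3, the plasma glutathione peroxidase made mainly by the proximal tubule (chr11:54905705-54906580), was open in 20.7% (19.5% to 21.9%), 750 bp from an old peak. The rest of the 10 lay in promoter windows, those of Arrdc3, an arrestin family gene, at 19.6%, Usp2, a deubiquitinase gene, at 19.5%, and Ndel1, a dynein regulator, at 18.6%. They lay 565 to 922 bp from a start, and each was within 458 bp of an old peak. Among the 10 most open regions at promoter windows of coding genes, those not yet named lay at Stt3b (16.7%), Rtkn (16.2%), Galnt14 (15.9%), Etv6 (15.4%) and Mbnl1 (15.1%), from 34 to 895 bp from an old peak.

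Young-only regions that were both fairly open and far from any old peak were rare. Of the 6982 with no old peak within 5 kb, 5 were open in at least 5% of young barcodes. These regions and the other promoters in the next paragraph were picked after their values had been seen. A pair lay side by side in Tnip1, an inhibitor of NF-kappaB signalling, next to Gpx3. They were open in 13.8% (12.8% to 14.8%; chr11:54911489-54912207) and 12.5% (11.5% to 13.5%; chr11:54912517-54913214), with the nearest old peaks at 6534 and 6925 bp. With the region in Gpx3 they place 3 young-only regions in the neighbourhood of that gene, and proximal tubule-like cells gave 96.9% to 97.2% of the fragments of each. One lay 5350 bp from Irx2, an Iroquois gene of nephron patterning (chr13:72639546-72640276), at 7.03% (6.29% to 7.82%).

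The other 2 covered gene starts. The start of Snap91, which encodes a clathrin assembly protein of synapses (chr9:86880176-86881377), was open in 274 barcodes, 6.17% (5.48% to 6.92%), 13544 bp from an old peak. The start of Hmga2 (chr10:120475905-120476663) was open in 246 barcodes, 5.54% (4.89% to 6.25%), 16378 bp from an old peak. At Hmga2 111 barcodes were needed for 50% of 271 fragments, and proximal tubule-like cells gave 89.9%. In all, young-only regions covered a RefSeq start of 175 coding genes, of which 60 had no old peak within 5 kb. After Snap91 and Hmga2 the most open of the 60 were Amotl1 at 4.98% (4.36% to 5.66%), Ttc29 at 3.20%, Col1a2 at 2.57% (2.12% to 3.08%; nearest old peak at 38014 bp), Pcsk6, a proprotein convertase gene, at 2.45%, Galnt16 at 2.41%, Gabra2, a GABA receptor subunit gene, at 2.32% and Nkx2-5, a cardiac homeobox gene, at 2.16%. Col1a2 is a fibroblast marker, yet proximal tubule-like cells gave 92.6% of the 122 fragments in kept cells at the region over its start. At another young-only region, 732 bp from Col1a2, they gave 64.7% of 51.

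Proximal tubule-like cells carried most young-only regions, as they carried most of the library. Cells were clustered on regions called in all libraries, so that no young-only region entered the clustering, and clusters were named from marker genes. Proximal tubule-like cells gave 85.4% of fragments in young-only regions and 90.9% of fragments in all peaks, and their median share at a young-only region was 89.6%. They gave 50% or more of the fragments at 91.0% of young-only regions, against 98.4% of regions called in all libraries. The latter were open in more barcodes. Among regions open in 1% to under 2% of barcodes, the median proximal tubule-like share was 90.3% for young-only regions. It was 91.7% for those shared with old replicate 2, 50% with old replicate 1 and 85.4% for those of all libraries. Cluster 19, described below, gave 6.60% of fragments in young-only regions and 0.401% of all. The distal nephron, classed as loop to collecting duct-like cells, gave 2.65% against 2.25% of all fragments. Cluster 11, 181 young cells that stayed without a name, gave 2.14% against 1.03%. Its share was at least 4 times that value at 11527 young regions, of which 4372 (37.9%) were young-only, against 13.5% of all young regions. At a region with few fragments, a few from the cluster are enough for this. Cluster 11 scored highest for proximal tubule, with 9 of 14 markers raised, and stayed unnamed as a shallow cluster. Its cells were shallow, with a median of 3838 counts against 29506 in proximal tubule-like cells. Immune and endothelial classes were below their share. Macrophage or dendritic cell-like cells gave 0.561% against 1.66%, T or NK cell-like cells 0.229% against 0.487%, neutrophil-like cells 0.0921% against 0.154% and endothelium-like cells 0.447% against 0.622%. Cluster 15, without a name and led by B cell genes such as Bank1 and Pou2af1, gave 0.363% against 0.622%. Old replicate 1 held 3277 macrophage or dendritic cell-like cells and 1231 T or NK cell-like cells, and the part of its make-up in these shares was not tested.

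**Figure D4:**
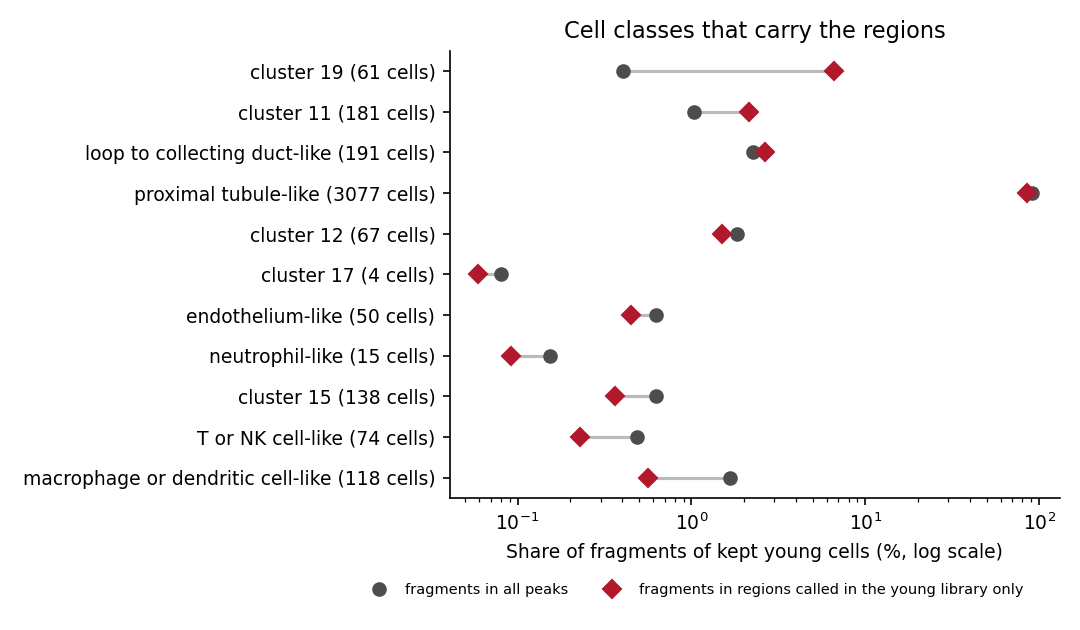
Share of the fragments of kept young cells that each cell class gave, in all peaks (circles) and in young-only regions (diamonds), on a log axis. Cluster 19 stands apart with 6.60% of fragments in young-only regions and 0.401% of all.

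The regions with the highest share of a single class were open in few barcodes in every class. The 3 named for proximal tubule-like cells, each with a share of 100%, were open in 0.428% to 0.923%. Those of the other classes were open in at most 1.64%. The highest loop to collecting duct-like share was 63.6% of the fragments in kept cells, at a region 393599 bp from Tmpo with 40 fragments. The highest macrophage or dendritic cell-like shares were 54.3%, near Wwox, and 53.5%, near Macc1, both close to an old peak. For T or NK cell-like cells the highest were 27.3% in Gsap and near Bcat1 and 23.9% in the promoter window of Milr1, all within 85 bp of an old peak. Endothelium-like cells reached 30.2% in Jakmip2 and 30.0% at a region near Stt3b. In cluster 15 the highest share was 51.2%, in St6gal1, a sialyltransferase gene of B cells, 93 bp from an old peak. Cluster 12, also without a name, gave 57.1% of the fragments of a region 28877 bp from Kap, the androgen-responsive kidney gene of the proximal tubule, and 35.4% at the start of Kap itself, which was open in 1.78% of barcodes.

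A small group of barcodes differed from all others in how much of their signal lay in young-only regions. In 143 of 4440 young barcodes (3.22%) at least 20% of the counts lay there, with a median of 45.3% and a range from 31.8% to 50.7%. The other 4297 had a median of 2.07%, and no barcode lay between 20% and 30%. The group was found after the data had been seen. Its barcodes were mostly shallow, with a median of 764 counts against 24099, though the deepest had 31356. Of them, 59 passed the filters and all fell in cluster 19, while 84 did not pass. Cluster 19 held 61 young cells and 9 of old replicate 2. It has no name, and its 10 leading genes were Grin3a, Tafa1, Klra9, Sorcs3, Ccl11, Sall1, Cdh9, Tmem233, Reln and Sall3. It gave 6.60% of the fragments in young-only regions and 0.401% of all fragments, a ratio of 16.4. Its highest share of a region was 82.5%, at 45 fragments between genes on X, 546185 bp from Pou3f4.

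**Figure D5:**
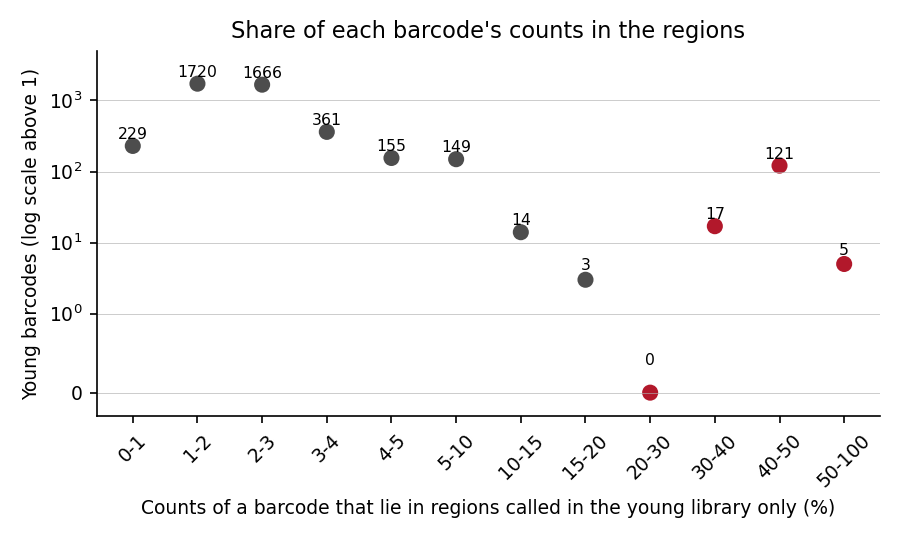
Number of young barcodes by the percent of their counts that lie in young-only regions, with a vertical axis that is logarithmic above 1. The 143 barcodes in red lie from 30% upwards, with 121 between 40% and 50%, and no barcode lies from 20% to under 30%.

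The 143 barcodes were picked by their share of counts in young-only regions, so part of what follows is set by that choice. This holds for the higher share there, the lower share in regions of all libraries and the number of young-only regions affected. Regions called in all libraries held 23.5% of the counts of the 143 barcodes against 82.9% in the other barcodes, and promoter windows held 12.4% against 35.5%. In young-only regions 99.6% of their values were even numbers, against 78.1%. They held 0.370% of all counts and 0.105% of the fragments in regions of all libraries, but 6.35% of the fragments in young-only regions. At 4689 young-only regions (23.6%) they gave 20% or more of the fragments, which was so for 4.02% of regions shared with old replicate 2, 3.72% of those shared with old replicate 1 and 0.383% of those of all libraries. At 638 they gave 50% or more, and at 14236 (71.6%) none. The affected regions were weak: 44.9% of young-only regions open in under 1% of barcodes had 20% or more of their fragments there, 17.0% of those from 1% to under 2%, 1.05% of those from 2% to under 5% and 0 of those from 5% upwards. On X the share was 31.3%, and on the autosomes it ran from 19.2% to 28.5%. In old replicate 2 no barcode held 20% or more of its counts in the regions called in that library only. In old replicate 1, where such regions held 20.2% of all counts, 3353 of 5656 barcodes did. What these barcodes are was not tested.

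Some named regions rest on them. At the concentrated region in Cnbd2 they gave 75.0% of the fragments, and without them it was open in 0.116% of barcodes. In the Wnt9b promoter window 38.4% of the fragments came from the 143 barcodes, at 1 region in Grb10, an imprinted growth inhibitor gene, 45.5%, and at 1 in Ghr, the growth hormone receptor gene, 50%. In Zic2, a neural transcription factor gene, it was 17.2%, at the Snap91 start 5.14%, and at the starts of Hmga2, Amotl1 and Col1a2 it was 0. At the other young-only region, 732 bp from Col1a2, it was 19.3%. Without the 143 barcodes the median openness of young-only regions was 1.16% and the median 10-barcode share 25.5%.

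Coding genes with the most young-only regions were mostly long ones. Of 16430 coding genes with a young region in the body or promoter window, 5763 (35.1%) held at least 1 young-only region, 409 held 5 or more and 53 held 10 or more. Across these genes the number rose with gene length (Spearman rho 0.546, a description over genes that share 1 library). Auts2, a transcriptional regulator gene, had 25 young-only regions among 105, and Erbb4, the neuregulin receptor gene, 22 of 43 (51.2%). Slit3, a guidance ligand gene, had 19 of 52, Gpc5, a glypican gene, 19 of 59 and Rbms3, an RNA-binding protein gene, 19 of 58. Dab1, the reelin adaptor, had 18 of 71 (25.4%). Npas3, a neuronal transcription factor gene, had 17 of 29 (58.6%), with a median of 1.71% and a highest value of 4.55% of barcodes open. Ptprd, a receptor phosphatase gene, had 17 of 69, the most open at 10.0%. Kcnma1 had 16 of 45, and Pde4d had 16 of 110 (14.5%), near the 13.5% over all young regions. Per 100 kb, among genes of at least 20 kb, the leading ones were Capn1 with 5 of 7 young regions, Tmem64 with 3 of 8, Miga2 with 3 of 4, Slc25a30 and Gbx1 with 3 of 7. In Slc25a30, a mitochondrial carrier gene, 4 of 10 young regions were young-only, with a median of 4.68% of barcodes open and a highest value of 8.60%.

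Some young-only regions followed each other along the chromosomes. For 5021 (25.3%) the next merged region on at least one side was young-only too, in 2261 runs, of which 385 held 3 or more. Young-only regions were 7.95% of all merged regions, and a region has a neighbour on each side. The share that random order would give was not computed, so 25.3% is a description. The longest held 8 regions over 39647 bp in the 5S ribosomal RNA gene cluster and Gas8 (chr8:123536408-123576054), each open in 0.338% to 1.15% of barcodes. These repeats are near-identical copies, so their reads may be assigned to the wrong copy and the run is uncertain. Runs of 6 lay in Pkhd1, the fibrocystin gene of recessive polycystic kidney disease, in Ryr3, near Steap1 and Zfp804b and in Npas3, where values ran from 1.17% to 3.40%. By chromosome the young-only share of young regions ran from 12.0% on 17 to 14.9% on 14 among autosomes, and it was 16.4% on X.

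Gene lists for kidney development, growth and transport held young-only regions about as often as the background of 13.5%. For nephron development genes 17 of 156 young regions were young-only (10.9%, interval 6.48% to 16.9%), at 11 of 24 genes. Besides Hnf4a the most open lay in Pax8 (6.10%), Sall1 (5.70%) and Pax2 (5.45%), transcription factor genes of the early nephron, and the start of Six2, the factor of nephron progenitors, was open in 118 barcodes, 2.66% (2.20% to 3.17%), 3363 bp from an old peak. For growth and imprinted genes the count was 30 of 215 (14.0%, 9.62% to 19.3%). After Hmga2 the most open lay in Igf1r, the IGF1 receptor gene, at 4.80%, in Igf2r at 3.58% and in Ghr at 3.13%. A young-only region at the Igf2 start was open in 58 barcodes, 1.31%, and an old peak lay 142 bp away. For cell cycle genes it was 6 of 51 (11.8%, 4.44% to 23.9%), led by a region in the E2f1 promoter window at 2.79%. Among 30 young regions at 25 histone genes none was young-only, which allows a share of up to 11.6% by the exact interval. Over all young regions at promoter windows the young-only share was 4.31%, and how many of the 30 lay there was not counted.

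Proximal tubule transport genes stood at 26 of 209 (12.4%, 8.29% to 17.7%) with a median of 4.72% of barcodes open, where the median over all young-only regions was 1.17%. After Slc26a1 the most open lay in Slc34a1, the main phosphate transporter gene (14.8%; 545 bp from an old peak), Slc2a2, the basolateral glucose transporter gene (10.1%; 78 bp), and Slc4a4, the bicarbonate cotransporter gene (8.29%; 1068 bp). Near the start of Slc5a12, a lactate transporter gene, a young-only region was open in 4.12% of barcodes with no old peak for 12644 bp. Extracellular matrix genes held 33 of 225 (14.7%), led by Col4a3 at 8.18% and Col18a1 at 5.18%. Hox genes held 7 of 68 (10.3%, 4.24% to 20.1%) with a median openness of 5.50%, led by the promoter windows of Hoxd8 at 11.5% and Hoxa9 at 11.2%, 571 and 704 bp from old peaks. Sex-biased and steroid response genes held 12 of 77 (15.6%) and nuclear respiratory chain genes 4 of 43 (9.30%). The 2 lowest lists after histones were the integrated stress response at 1 of 47 (2.13%, 0.0539% to 11.3%), where Sesn2 held the region, and MHC class II at 1 of 35 (2.86%, 0.0723% to 14.9%), at H2-DMa. B cell genes held 8 of 91 (8.79%), led by Bach2 at 3.63%. Regions of a list lie in few genes and are not independent, so the intervals are descriptions.

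Shared regions near young-only regions differed little in median level between the young library and old replicate 2. In proximal tubule-like cells, the 8689 regions called in all libraries within 5 kb of a young-only region had a median log2 ratio of young over old replicate 2 of -0.04 (CPM with a pseudocount of 1), against -0.07 over all 72317. At least 2-fold higher in the young library were 0.322% of them, against 0.236% of all. At least 2-fold lower were 1.37%, against 2.13% of all. These ratios compare 1 library with another and carry no error between animals. Clustered on regions called in all libraries, proximal tubule-like cells of the 2 libraries still fell mostly into separate clusters. Cluster 0 held 1444 cells of old replicate 2 and 0 young cells, and cluster 1 held 0 and 1387. Cluster 16 was mixed, with 179 and 53. The cause of this split was not tested.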

How the data were processed

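Open chromatin was measured in 3 libraries of single kidney cells. The data had been run through Cell Ranger ATAC 2.1.0 with build mm10, per the submitters' processing notes. Values in the deposited matrices are raw counts of transposition ends for each peak and barcode, with peaks of each library listed separately and no normalization. Nothing was recounted: a library has counts only in its own peaks. Groups came from the sample titles.

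Peaks were merged at an overlap of at least 1 bp. Fragments were a count over 2, rounded up. Shares of barcodes carry exact (Clopper-Pearson) 95% intervals, which cover counting error only. Barcodes with at least 1000 counts were kept for classes, and doublets were removed against simulated doublets (50 neighbours) at 0.8% of barcodes per 1000 barcodes. Regions called in all libraries were reduced by latent semantic indexing (30 components, 20 neighbours, seed 7) and clustered by the Leiden method at resolution 1 (Python 3.11.15, scikit-learn 1.9.0, leidenalg 0.10.2). A cluster's name needed 3 markers raised by at least 1 on the log2 scale (pseudocount 5 CPM), a margin of 0.25 over the next class and no excess of another class among its 10 leading genes. Shallow clusters with no own marker there stayed unnamed. The naming was changed 1 time with the clusters in view: gene counts came first from shared regions and then from each library's own peaks without the young-only regions, and distal segment sets were joined.

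Gene positions, starts and promoter sequences came from RefSeq on GRCm38.p6, with no exon positions, so exons and introns are not separated. A further motif is not reported here. The regions were chosen by measured peaks, and they and the gene lists were chosen with earlier results of these data known, so nothing was tested. Regions were named by rule: the 10 most open, the 10 most open at promoters, 3 per named cell class, the 5 most concentrated, the genes with the most regions, the most open at up to 4 genes per list, the edges of the rule and the longest runs. Others are marked in the text, except those at Six2, Igf2, Slc5a12, Zic2, Wnt9b and Grb10, which were also named outside the rule. So were a further region in Ghr and the one beside Col1a2. The regions in St6gal1, near Kap and near Pou3f4 were named for clusters without a name. These clusters were added later to the class rule. The merging and carriage steps were tested on simulated data. Alternatives were another merge rule, openness minimums, each old library left out, other barcode filters, another promoter window, counts in place of fragments and resolution 2.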

Additional observations from a re-analysis of the deposited data

How the results depend on the processing

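The medians over young-only regions have no replicate error to be read against. The share of fragments in 10 barcodes ran from 14.9%, with a minimum openness of 2%, to 27.1%, with counts in place of fragments, and was 18.4% without old replicate 2. The proximal tubule-like share ran from 84.8% without old replicate 1 to 93.2% with that minimum. Leaving out each old library in turn gave 30802 to 65397 young-only regions, 20.7% to 44.1% of regions with a young peak, 3.94% to 15.9% of young counts, 5.09% to 5.19% at promoter windows and a median openness of 1.24% to 1.87%, the higher count coming without old replicate 2. When peaks open in under 1% of their library's barcodes were dropped, the share of young regions was 17.1%, of counts 3.17% and at promoters 4.23%, and with a minimum of 2% these were 17.4%, 3.96% and 5.72%, with a median openness of 2.55%. When a young peak was shared only if an old peak covered 50% of it, 14.2% of young peaks and 2.64% of counts were young-only. With peaks up to 500 bp apart merged, the values were 12.3%, 1.83% and 2.91% at promoters. A promoter window of 500 bp gave 2.35%. The share of counts was 2.36% in barcodes with at least 1000 counts, 2.35% in kept cells and 2.22% without the 143 barcodes, an alternative added after the data had been seen. The cause of these shifts was not tested, beyond the smaller window and the merge and openness rules, which change the set by construction.

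No paired analysis was possible because the young group is 1 library. The depth of a library bears on which weak peaks are called, and old replicate 2 had 64729297 counts against 110871506 in the young library. No old level at these regions was available for use here, so a region open in the old kidneys below the threshold of peak calling cannot be told apart from a closed one.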
